A study of Mus musculus with 36 samples.

Results

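The NF-kappaB cytokines and chemokines described here are 10 genes, chosen by their symbols out of 54842 genes counted in MEF (mouse embryonic fibroblast) cells. They are the interleukin gene Il6, the CXC chemokine genes Cxcl1, Cxcl2 and Cxcl5, the CC chemokine genes Ccl2 and Ccl7, the colony stimulating factor gene Csf1, the inhibitor genes Nfkbia and Tnfaip3, and the Rel subunit gene Relb. RNA was measured in 36 libraries, in 12 groups of 3 replicates. The MSR-dCas9-Control line carries dCas9 alone and the MSR-dCas9-Activator line carries dCas9 fused to the VPR transcriptional activator, and in both a guide RNA directs dCas9 to the major satellite repeats (MSR), the tandem repeats of mouse pericentric heterochromatin. Both lines hold a doxycycline-inducible dCas9 component and a constitutive guide on a single PiggyBac plasmid, and both were selected with hygromycin and kept as mixed cultures. Cells were uninduced, induced with doxycycline at 10 ng/ml, or collected once doxycycline had been removed by a PBS wash and fresh medium (3, 6, 12 and 24 h later). The MSR-dCas9-Control line was induced for 24 h and the MSR-dCas9-Activator line for 6 h, so effector and length of induction cannot be told apart. The study describes the 3 replicates as independent experiments, and the labels give their numbers.

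NF-kappaB is a family of dimeric transcription factors held in the cytoplasm of resting cells by IkappaB proteins. Signals from tumour necrosis factor, interleukin-1 and Toll-like receptors lead to the phosphorylation and loss of IkappaB, and the freed dimers bind kappaB sites in promoters and enhancers. In fibroblasts the targets include secreted chemokines that attract neutrophils (the CXC ligands) and monocytes (the CC ligands), and also genes that shut the pathway off again, such as Nfkbia, which encodes IkappaB-alpha, and Tnfaip3, which encodes the ubiquitin-editing enzyme A20.

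The promoters show the sequence element that gives the pathway its name. RefSeq promoter windows (GRCm38.p6) were matched by symbol for 6 of the 10 genes, and the kappaB consensus motif was searched on both strands in the 250 bases before each start. All 6 held at least 1 match, against 7.01% of 27025 genes with a window. In Cxcl1 and Cxcl2 the match is a palindromic run read on both strands, which counts as 2 overlapping matches, and in Tnfaip3 there are 2 separate matches. The AP-1 motif TGANTCA, which stood in 6.87% of genes, was found in Il6 from 249 and in Tnfaip3 from 136 bases before the start, next to but not overlapping the kappaB match in Tnfaip3. A match describes letters only and was not tested for binding. The stretches that follow run up to the base before the start, on the strand of the gene, with the kappaB match in capitals. They lie at chr5:30012964-30013113 (plus strand) for Il6, chr5:90891095-90891244 (plus) for Cxcl1, chr5:90903749-90903898 (plus) for Cxcl2, chr3:107760470-107760719 (minus) for Csf1, chr12:55492648-55492797 (minus) for Nfkbia and chr10:19015411-19015560 (minus) for Tnfaip3. Tnfaip3 has a further RefSeq start with no match before it.
Il6: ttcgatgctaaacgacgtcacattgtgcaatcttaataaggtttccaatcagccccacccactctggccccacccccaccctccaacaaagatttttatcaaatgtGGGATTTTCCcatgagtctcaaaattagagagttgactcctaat
Cxcl1: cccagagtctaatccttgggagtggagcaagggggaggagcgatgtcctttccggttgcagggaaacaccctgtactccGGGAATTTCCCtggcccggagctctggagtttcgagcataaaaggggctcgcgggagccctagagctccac
Cxcl2: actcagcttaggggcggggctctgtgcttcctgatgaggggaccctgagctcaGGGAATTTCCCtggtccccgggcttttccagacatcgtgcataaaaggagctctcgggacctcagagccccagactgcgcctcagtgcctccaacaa
Csf1: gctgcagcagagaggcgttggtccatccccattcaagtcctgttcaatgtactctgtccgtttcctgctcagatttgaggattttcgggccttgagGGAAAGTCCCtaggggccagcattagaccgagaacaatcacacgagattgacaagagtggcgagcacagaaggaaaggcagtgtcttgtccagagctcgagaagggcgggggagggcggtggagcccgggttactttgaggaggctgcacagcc
Nfkbia: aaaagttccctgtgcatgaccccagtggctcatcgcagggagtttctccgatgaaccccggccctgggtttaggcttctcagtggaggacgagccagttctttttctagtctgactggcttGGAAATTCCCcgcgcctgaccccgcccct
Tnfaip3: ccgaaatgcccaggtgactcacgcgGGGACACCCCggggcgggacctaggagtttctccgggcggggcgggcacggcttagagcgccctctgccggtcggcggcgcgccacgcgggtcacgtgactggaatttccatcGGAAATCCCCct

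**Figure D1:**
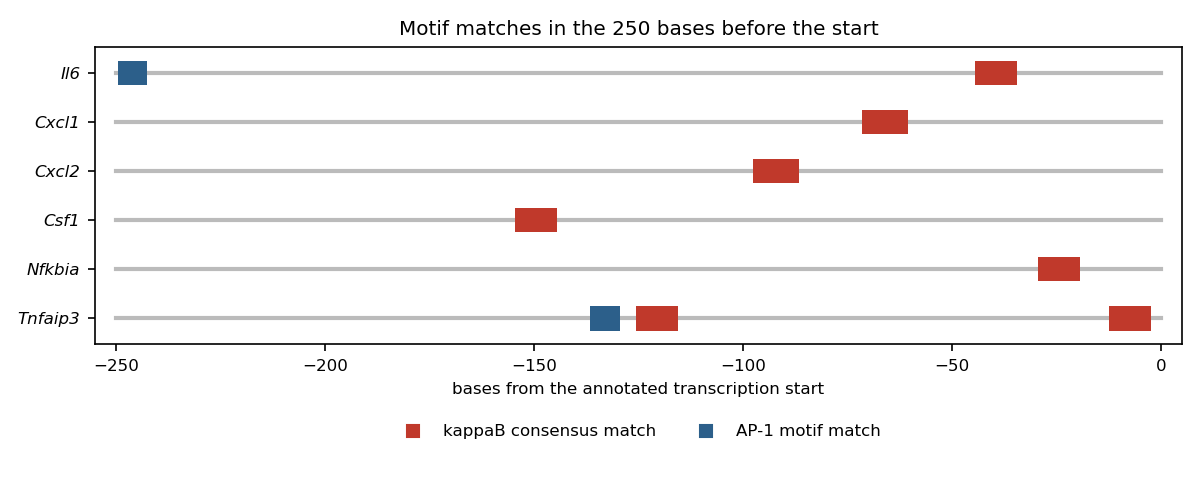
Positions of motif matches (boxes) in the 250 bases before the annotated start of 6 genes, with the distance from the start in bases on the horizontal axis. The kappaB match lies closest to the start in Tnfaip3 (from 12 bases before it) and Nfkbia (from 29), and farthest in Csf1 (from 154).

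The libraries held between 27376846 and 57371803 counts in genes (median 42865961). Levels are CPM (counts scaled to 1e+06 per library) with TMM-scaled library sizes. The effector acted in the labelled line: GSAT_MM, the major satellite family, stood at 52.1 to 99.3 CPM in uninduced MSR-dCas9-Activator libraries and at 2362 to 25191 CPM at the end of induction, while it stayed at 22.6 to 47.1 CPM in all 18 MSR-dCas9-Control libraries. Uninduced MSR-dCas9-Activator libraries thus already lay above every MSR-dCas9-Control library, and the study also reported raised MSR reads in that line without doxycycline. That group is therefore not a baseline free of raised satellite RNA. Replicate 2 of the MSR-dCas9-Activator line stood apart late in the course, and in part before. At the end of induction it was the highest of its group in Cxcl1, Csf1, Nfkbia and Tnfaip3, and the lowest in Il6, Ccl2, Ccl7 and Relb. In Ccl7 and Relb it lay close to another library of the group. At 24 h its SYNREP_MM (minor satellite) level was 252 CPM against 1352 and 773 CPM in replicates 1 and 3, and several of the genes below deviated in the same library. Of the fibroblast markers, Col1a1 and Col1a2 were never below 2621 and 908 CPM, and Thy1 reached no more than 6 counts. Of the 9 tested, 1 was called lower and 1 higher in MSR-dCas9-Activator cells at the end of induction. The shares of all genes with a mean above 100 were 12% and 5.81%. At 12 h 4 were called lower and 1 higher (all such genes 22.8% and 8.99%). The marker called higher was Dcn, both at the end of induction (log2 1.43) and at 12 h (1.83). At 24 h 5 were called lower (all such genes 8.64%), Col1a1 (log2 -1.38), Col1a2 (-1.63), Pdgfra (-1.17), Pdgfrb (-1.88) and S100a4 (-1.59). The rest were not called at 24 h: Vim (-0.70), Col3a1 (-0.56), Fn1 (-0.10) and Dcn (0.66). In bulk RNA a lower level can come from fewer expressing cells or from less RNA per cell, which cannot be told apart. The study found no loss of viability right after induction. By 24 h after doxycycline removal it found most MSR-dCas9-Activator cells apoptotic or dead. Late levels in that line are thus from cultures losing cells, and the part of cell death in them was not tested.

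In uninduced MSR-dCas9-Control cells the 10 genes spanned a wide range of levels per kb of exon. Csf1, the growth factor for macrophages, stood highest at 146 ± 24.4 CPM per kb (SD, n = 3), above Ccl2 at 90.9 ± 11. Nfkbia (14.3 ± 1.55), Ccl7 (13.3 ± 2.87) and Cxcl1 (10.9 ± 2.73) followed without separating from each other beyond their spread. Tnfaip3 (5.69 ± 1.63) and Relb (5.17 ± 0.617) were likewise neighbours, and Il6 stood at 0.449 ± 0.0351 CPM per kb. Cxcl5 and Cxcl2 were close to absent in every condition. Cxcl2 had 17 counts in all 36 libraries together, no more than 2 in any and 0 in 22 of them. Cxcl5 had 60 counts together, no more than 5 in any, and 0 in 11 libraries. A group with no count allows up to 3 counts, so for these chemokines no difference was detectable at this depth, and both fell to the low-count filter. The other 8 genes were tested, all with a mean normalised count above 100. For Il6 that mean (148) was reached only through the MSR-dCas9-Activator libraries (254), since its mean over the MSR-dCas9-Control libraries was 41.4. Ccl2 lies within the opposite-strand gene Gm17268, which had no more than 10 counts in any library.

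Genes were compared with edgeR's quasi-likelihood test over all 36 libraries, and a gene was called when its Benjamini-Hochberg adjusted p was under 0.05, its fold change over 2 and its mean normalised count above 100. Before induction the lines did not differ by this test in any of the 8 genes (0 called by edgeR, 0 by DESeq2 and 0 at an unadjusted p under 0.05), with 0.404% of all 13628 genes above that mean called higher and 0.044% lower in MSR-dCas9-Activator cells. An unadjusted p under 0.05 was reached by 1819 of the 13628. The fitted differences of the 8 genes ran from -0.52 for Ccl2 to 0.35 for Cxcl1 on the log2 scale.

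**Figure D2:**
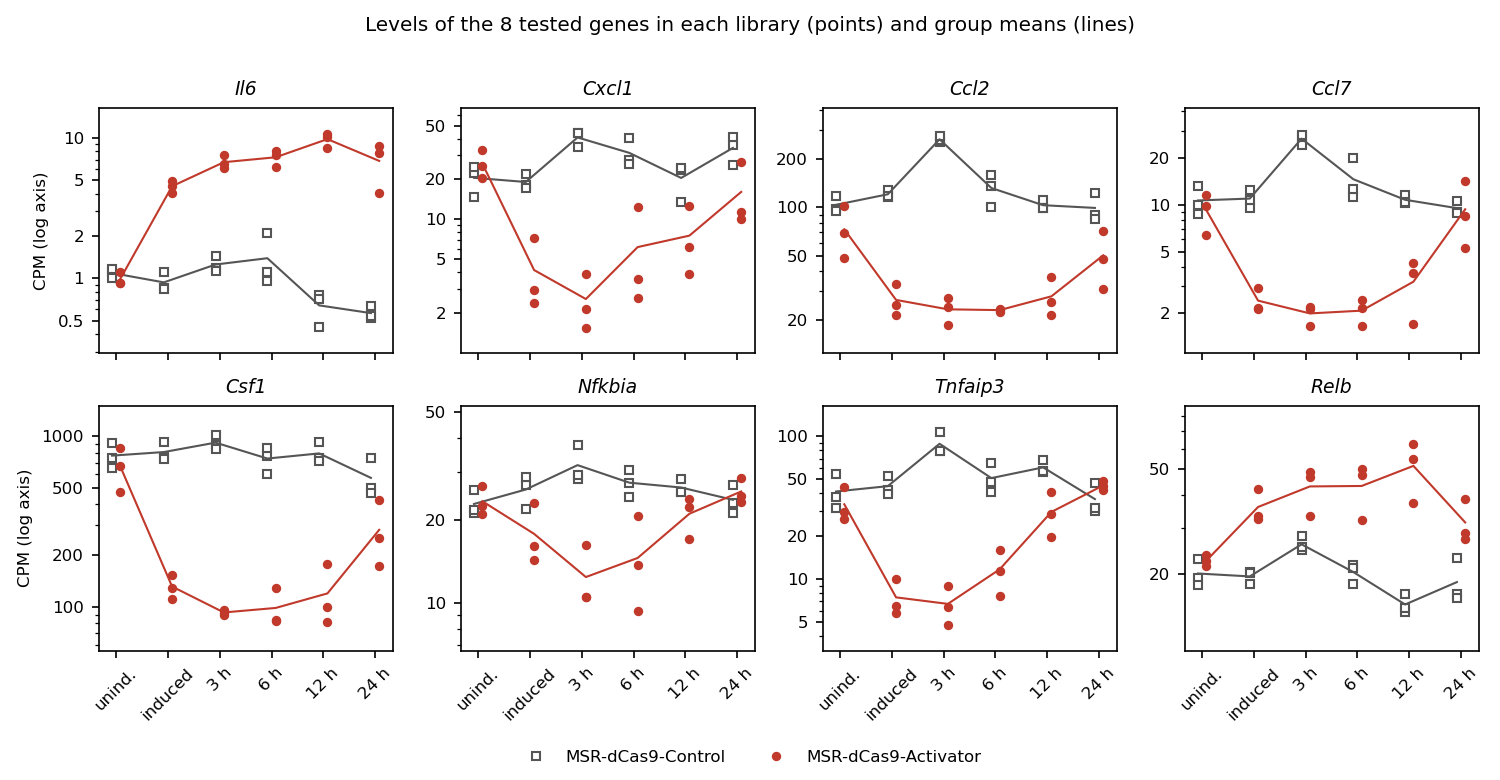
CPM on a log axis for the 8 tested genes in each library, by time point (uninduced, end of induction, and hours after doxycycline removal), with MSR-dCas9-Control libraries as open squares, MSR-dCas9-Activator libraries as filled circles and lines through group means. From induction to 12 h Cxcl1, Ccl2, Ccl7, Csf1 and Tnfaip3 were lower in every MSR-dCas9-Activator library than in any MSR-dCas9-Control library of that time point, while Il6 and Relb were higher.

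Il6, the pro-inflammatory interleukin, had the largest fitted rise of the 8 genes at each time point from induction on. In uninduced cells it stood at 1.11, 1.16 and 0.997 CPM in the 3 MSR-dCas9-Control libraries and at 1.11, 0.933 and 0.933 CPM in the MSR-dCas9-Activator libraries. At the end of induction the MSR-dCas9-Activator libraries held 4.94, 4.06 and 4.56 CPM against 1.12, 0.851 and 0.836 CPM. The groups did not overlap, and Il6 was 4.80-fold higher (log2 2.26 ± 0.21 SE, edgeR adjusted p = 7.76e-10). Its level went on to 10.7, 8.47 and 10.2 CPM 12 h after removal, against 0.761, 0.714 and 0.448 CPM in MSR-dCas9-Control cells (log2 3.91 ± 0.22, edgeR adjusted p = 1.02e-14). At 24 h replicate 2 had dropped to 4.02 CPM while the others stood at 8.75 and 7.76 CPM, all above the 0.519 to 0.638 CPM of the MSR-dCas9-Control line. Part of the wider gap at 12 and 24 h lies in the MSR-dCas9-Control line, whose mean was 58.8% and 51.8% of its uninduced mean. One MSR-dCas9-Control library, replicate 1 at 6 h, held 2.09 CPM of Il6 and also the highest SYNREP_MM level of its line (4.83 CPM). Low genes rose widely: of 15352 tested genes with a mean of 100 or less over the MSR-dCas9-Control libraries, 39.5% were more than 2-fold higher with an adjusted p under 0.05 at the end of induction. The shares at 3, 6, 12 and 24 h were 47.9%, 50.4%, 54.3% and 49.4%. Some of those genes passed the filter only through MSR-dCas9-Activator libraries, as Il6 passed the limit on the mean, so its rise is not set apart from the rest of the low genes by this count.

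The CXC ligand that was expressed, Cxcl1, an attractant of neutrophils, went the other way. It stood at 20.2, 33.0 and 24.9 CPM in uninduced MSR-dCas9-Activator libraries and at 2.95, 7.18 and 2.37 CPM at the end of induction, against 17.9, 21.9 and 17.0 CPM in induced MSR-dCas9-Control libraries. The 4.97-fold difference (log2 -2.31 ± 0.37, edgeR adjusted p = 1.23e-05) widened to 17.2-fold at 3 h, where MSR-dCas9-Activator libraries held 1.54, 3.90 and 2.15 CPM and MSR-dCas9-Control libraries 43.9, 44.1 and 34.4 CPM. Replicate 2 was the highest MSR-dCas9-Activator library at every time point. At 12 h the difference was 2.86-fold and at 24 h 2.27-fold, with replicate 2 at 26.6 CPM, inside the 25.2 to 41.4 CPM of the MSR-dCas9-Control libraries, and the others at 10.0 and 11.3 CPM. The call at 24 h was lost without replicate 1 of the MSR-dCas9-Activator line at that time point (log2 -0.89) and without replicate 1 (-0.87) or 3 (-1.20) of every group.

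The CC ligands Ccl2 and Ccl7, monocyte attractants that lie 8.259 kb apart on chromosome 11, both fell. Ccl2 stood at 101, 48.3 and 69.0 CPM in uninduced MSR-dCas9-Activator libraries and at 33.4, 21.4 and 24.9 CPM after induction, against 127, 115 and 118 CPM in the induced MSR-dCas9-Control line (4.54-fold lower, edgeR adjusted p = 2.15e-07). Ccl7 stood at 2.93, 2.15 and 2.17 CPM after induction against 12.5, 9.59 and 10.8 CPM (4.53-fold lower, edgeR adjusted p = 1.53e-06). No MSR-dCas9-Activator library reached the MSR-dCas9-Control libraries in either gene. At 3 h the differences were 11.4-fold for Ccl2 and 13.4-fold for Ccl7. At 24 h neither was called. Ccl2 then stood at 31.1, 71.5 and 48.0 CPM against 89.4, 84.6 and 123 CPM, 1.94-fold lower and so short of the 2-fold limit (edgeR adjusted p = 0.00223). It passed that limit without replicate 2 of the MSR-dCas9-Activator line (log2 -1.39) or without replicate 1 (-1.07) or 2 (-1.05) of the MSR-dCas9-Control line at 24 h, and without replicate 2 of every group (-1.30). Ccl7 stood at 5.31, 14.3 and 8.46 CPM against 9.05, 8.86 and 10.6 CPM, overlapping groups with a log2 difference of -0.01 ± 0.29 (edgeR adjusted p = 0.979).

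Csf1, the most abundant of the 10 per kb, fell and was the furthest below its own uninduced mean at 24 h. In uninduced MSR-dCas9-Activator libraries it stood at 850, 471 and 672 CPM, at the end of induction at 129, 154 and 111 CPM, and at 3 h at 89.8, 95.9 and 92.3 CPM. The MSR-dCas9-Control libraries held 756, 739 and 925 CPM at the end of induction and 886, 841 and 1022 CPM at 3 h, far from any MSR-dCas9-Activator library. The differences were 6.12-fold (log2 -2.61 ± 0.30, edgeR adjusted p = 7.77e-08) and 9.89-fold. As a share of its own uninduced mean, the MSR-dCas9-Activator level was 19.8% at the end of induction and 13.9%, 14.8%, 18.0% and 42.5% at the later time points in turn. At 24 h it was 2.04-fold lower (edgeR adjusted p = 0.00292), with libraries at 173, 423 and 252 CPM against 499, 466 and 744 CPM. That call was lost without replicate 1 (log2 -0.68) or 3 (-0.82) of the MSR-dCas9-Activator line or replicate 3 of the MSR-dCas9-Control line (-0.82) at 24 h, and without replicate 1 (-0.83) or 3 (-0.73) of every group. It was also lost with DESeq2 (-0.89) and less the difference before induction (-0.83, edgeR adjusted p = 0.108).

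Of the inhibitor genes, Tnfaip3 was called lower at the end of induction, 3, 6 and 12 h, and Nfkbia at 3 h alone. Tnfaip3 stood at 44.4, 26.4 and 29.5 CPM in uninduced MSR-dCas9-Activator libraries and at 6.51, 10.0 and 5.81 CPM at the end of induction, against 42.0, 39.6 and 52.8 CPM in the MSR-dCas9-Control line (6.02-fold lower, edgeR adjusted p = 7.34e-08). At 3 h it was 13.3-fold lower. Of the 5 genes called lower at the end of induction it then held the highest share of its uninduced level at 6, 12 and 24 h, going by group means: the MSR-dCas9-Activator mean was 35% of its uninduced mean at 6 h, 88.4% at 12 h and 136% at 24 h, where its libraries overlapped those of the MSR-dCas9-Control line (log2 0.33 ± 0.27, edgeR adjusted p = 0.289). The 2.07-fold difference at 12 h (edgeR adjusted p = 0.00136) fell short of 2-fold with DESeq2 (log2 -0.84) and in the libraries of that time point alone (log2 -0.94), and without replicate 1 (-0.76) or 3 (-0.85) of the MSR-dCas9-Activator line, replicate 3 of the MSR-dCas9-Control line (-0.92), or replicate 1 (-0.85) or 3 (-0.95) of every group. Less the difference before induction it was -0.79 and no longer past the test (edgeR adjusted p = 0.0877). Nfkbia stood at 16.1, 23.2 and 14.3 CPM after induction against 22.1, 26.9 and 28.9 CPM, groups that overlap (log2 -0.54 ± 0.20, edgeR adjusted p = 0.0218, under 2-fold). It was called at 3 h, with 10.5, 16.3 and 10.5 CPM against 28.5, 29.5 and 37.7 CPM (2.58-fold lower, edgeR adjusted p = 1.13e-06). At 6 h (log2 -0.94 ± 0.20, edgeR adjusted p = 0.00015) it was 1.92-fold lower, and past 2-fold without replicate 2 of either line (-1.21 for MSR-dCas9-Activator, -1.08 for MSR-dCas9-Control) or of every group (-1.19). By 12 h (log2 -0.33 ± 0.20) and 24 h (0.10 ± 0.20) it was no longer past the test.

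Relb, the subunit of the non-canonical NF-kappaB pathway, rose. It stood at 22.4, 21.4 and 23.7 CPM in uninduced MSR-dCas9-Activator libraries and at 33.3, 32.5 and 42.1 CPM after induction, against 18.3, 20.3 and 20.2 CPM in the MSR-dCas9-Control line. The groups did not overlap from induction on, and the adjusted p was at most 2.42e-05, but the fold change passed 2 at 6 h (2.10-fold) and 12 h (3.35-fold) and not at the end of induction (1.83-fold), 3 h (1.65-fold) or 24 h (1.68-fold). At 12 h the MSR-dCas9-Activator libraries held 37.3, 62.4 and 55.0 CPM against 14.3, 14.9 and 16.7 CPM (edgeR adjusted p = 4.27e-12). At the end of induction the 2-fold limit was passed without replicate 2 of every group (log2 1.12). At 6 h the call was lost without replicate 3 of every group (log2 0.98) and without replicate 2 of the MSR-dCas9-Control line (0.99), with the difference before induction subtracted (0.90), with unscaled library sizes (0.93) and with scaling to mitochondrially encoded mRNAs (0.37).

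**Figure D3:**
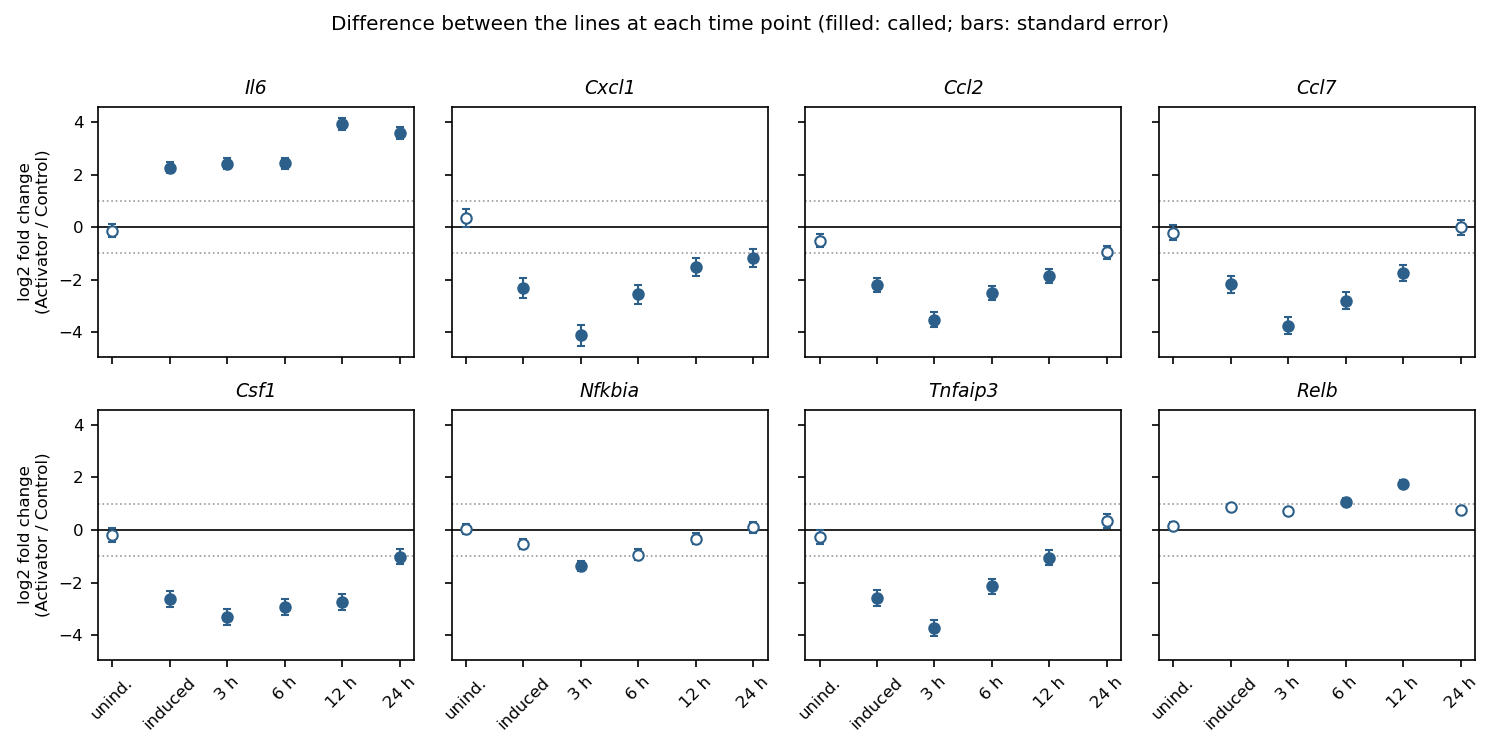
Fitted log2 fold change of MSR-dCas9-Activator over MSR-dCas9-Control cells (vertical axis, with standard errors) at each time point for the 8 tested genes, filled where called, with dotted lines at 2-fold. The falls of Cxcl1, Ccl2, Ccl7, Csf1, Nfkbia and Tnfaip3 were deepest at 3 h, and Il6 stood highest at 12 h.

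Counted over the genes, 1 rose and 5 fell at the end of induction, against 5.81% and 12% of the 13628 genes with a mean above 100. At 3 h 1 rose and 6 fell (all such genes 7.09% and 19.8%), at 6 h 2 rose and 5 fell (7.53% and 21.5%), and at 12 h 2 rose and 5 fell (8.99% and 22.8%). At 24 h 1 rose and 2 fell (6.99% and 8.64%). In the same order of time points the median log2 difference of the 8 genes was -2.18, -3.41, -2.32, -1.28 and 0.04, beside -0.07, -0.11, -0.18, -0.29 and -0.30 over all genes above that mean. The count at 24 h was the least firm: it was 1 without replicate 1 of the MSR-dCas9-Activator line and 4 without its replicate 2 at that time point, and 1 without replicate 1 or 3 of every group, and it was 2 less the difference before induction. How many genes rose and fell over the whole table depended on the scaling: with library sizes set by mitochondrially encoded mRNAs 544 rose and 3073 fell at the end of induction (792 and 1629 by TMM) and 710 and 6348 at 12 h (1225 and 3113), and with DESeq2 size factors 1671 and 2274 at 12 h and 1168 and 700 at 24 h (952 and 1177).

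Within the MSR-dCas9-Activator line, the same number of genes differed between induced and uninduced cells. The study took uninduced samples before induction, so time in culture and induction cannot be told apart here. Compared with uninduced cells, 1 of the 8 was called higher and 5 lower, against 5.06% and 12.6% of all genes above a mean of 100. Il6 rose by 2.19 on the log2 scale, and Cxcl1 (-2.76), Csf1 (-2.35), Tnfaip3 (-2.20), Ccl7 (-1.93) and Ccl2 (-1.45) fell. In the MSR-dCas9-Control line the same comparison gave values from -0.20 for Il6 to 0.22 for Ccl2, with 0 called by edgeR or DESeq2, against 0.117% of genes. At an unadjusted p under 0.05 there were 0 of the 8, beside 1232 of the 13628 genes above that mean. The difference between the changes in the lines was called for 1 gene in the upward and 5 genes in the downward direction, against 4.67% and 11.4%. It was 2.39 ± 0.31 for Il6 (edgeR adjusted p = 3.03e-06) and -2.67 ± 0.50 for Cxcl1 (edgeR adjusted p = 0.000362), and it did not pass for Nfkbia (-0.58 ± 0.28, edgeR adjusted p = 0.110). Without replicate 3 of every group the difference was no longer past the test for Cxcl1 (log2 -2.21), Ccl2 (-1.61) and Ccl7 (-1.73).

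In MSR-dCas9-Control cells Ccl2, Ccl7 and Tnfaip3 stood higher 3 h after the wash and fresh medium that removed doxycycline than at the end of induction, a difference that edgeR did not call. Ccl2 went from 127, 115 and 118 CPM to 254, 260 and 277 CPM in 3 h, Ccl7 from 12.5, 9.59 and 10.8 CPM to 27.7, 24.2 and 28.1 CPM, and Tnfaip3 from 42.0, 39.6 and 52.8 CPM to 79.2, 79.2 and 108 CPM. In all of these the 3 h libraries lay above the induced ones, and at 6 h the libraries overlapped the induced ones again. The log2 differences of 1.28 for Ccl7 (edgeR adjusted p = 0.0568), 1.14 for Ccl2 (0.0662), 1.12 for Cxcl1 (0.285) and 0.98 for Tnfaip3 (0.195) did not pass over all genes, so edgeR called 0 of 8 (5 at an unadjusted p under 0.05), while DESeq2 called 3. Without replicate 1 of every group edgeR called Ccl7 (log2 1.36). Of all genes above a mean of 100, 0.0734% were called, and 1292 of 13628 had an unadjusted p under 0.05. In MSR-dCas9-Activator cells the same step gave -0.19 for Ccl2, -0.28 for Ccl7, -0.67 for Cxcl1 and -0.16 for Tnfaip3. There 0 were called by edgeR or DESeq2, against 1.27% of genes called. At an unadjusted p under 0.05 there were 2 of the 8, beside 4072 of the 13628 genes above that mean. The deepest difference between the lines in Ccl2, Ccl7, Cxcl1 and Tnfaip3 fell at 3 h, the time point at which their MSR-dCas9-Control mean was highest. A test of the difference between the changes in the lines was not run.

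The rest of the pathway was read from lists by role, whose genes are named by a fixed rule. Of the 4 other Rel family subunit genes (Rela, Rel, Nfkb1 and Nfkb2), 0 were called by edgeR or DESeq2 at the end of induction or 12 h. At an unadjusted p under 0.05 there were 3 and 2, beside 8735 and 10690 of the 13628 genes with a mean above 100. Those 3 and 2 subunit genes also passed the adjusted test at under 2-fold. At the end of induction these were Rela (log2 -0.41, edgeR adjusted p = 0.000208), Rel (-0.57, 0.00293) and Nfkb2 (0.24, 0.00621). At 12 h they were Rela (-0.22, 0.0222) and Nfkb2 (0.39, 2.74e-05). Median log2 differences were -0.18 and -0.12, the latter 0.09 with DESeq2. Of the 10 receptors upstream of NF-kappaB, 9 had a mean above 100 and 4 of these fell at the end of induction (12% of all genes), among them Tnfrsf1b, a tumour necrosis factor receptor (3.19-fold lower), and Tlr2, a Toll-like receptor for bacterial lipopeptides (3.02-fold lower). At 12 h 6 fell (22.8% of all genes), with Tlr4, the endotoxin receptor, at 12.3 ± 6.91 CPM against 29.1 ± 1.69 (SD, n = 3). Of the 19 kinases and adaptors, 3 fell at the end of induction, a share near the 12% of all genes, among them Map3k14, the kinase of the non-canonical pathway (2.38-fold lower), and Traf5 (2.24-fold lower). At 12 h 5 fell and 1 rose, again near the 22.8% and 8.99% of all genes: Tab1 was 3.10-fold and Ikbke 2.92-fold lower, and Traf6, an adaptor of interleukin-1 and Toll-like receptors, was 2.41-fold higher, a call lost with scaling to mitochondrially encoded mRNAs (log2 0.68).

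Of 12 other inhibitors and modulators tested, 11 had a mean above 100, and at the end of induction 5 of these fell and 1 rose, beside 12% and 5.81% of all genes. The others included Cyld (log2 0.004) and Tnip1 (-0.08), and Nlrc5, under that mean, stood at 2.52 (edgeR adjusted p = 7.05e-05). Bcl3 (3.57-fold) and Nfkbiz (3.19-fold), both nuclear IkappaB proteins, fell, and Tnip2, a partner of A20, rose 2.21-fold, a call lost with scaling to mitochondrially encoded mRNAs (log2 0.78). At 12 h 2 fell and 1 rose (22.8% and 8.99% of all genes), and the fall of Nfkbiz (2.15-fold) was then under 2-fold with DESeq2. Of 30 other target genes tested, 15 had a mean above 100 and 5 of these fell and 1 rose at the end of induction, beside 12% and 5.81% of all genes. Bcl2l1, which protects cells from apoptosis, fell 5.07-fold and Lif, a cytokine of the interleukin-6 family, 4.98-fold, while Mmp13, a collagenase, stood at 5.42 ± 1.62 against 0.341 ± 0.135 CPM. Mmp13 held no more than 0.989 CPM in any MSR-dCas9-Control library and so reached the mean of 100 only through the MSR-dCas9-Activator libraries, as Il6 did, and it was already called higher before induction (2.85 against 0.836 CPM). At 12 h 4 fell and 2 rose (22.8% and 8.99% of all genes). Cxcl12, a chemokine abundant in fibroblasts, stood at 229 ± 155 against 1795 ± 68.5 CPM, and Ptgs2, the inducible cyclooxygenase, at 76.8 ± 11.7 against 19.1 ± 6.38 CPM. Among 15 target genes with a mean of 100 or less over the MSR-dCas9-Control libraries, 9 were more than 2-fold higher with an adjusted p under 0.05 at the end of induction and 12 at 12 h, beside the 39.5% and 54.3% of all such genes. Il1b, chosen after its values were seen, was at most 0.0682 CPM in MSR-dCas9-Control libraries and between 0.183 and 1.58 CPM in MSR-dCas9-Activator libraries from induction on. Of 10 receptors of the cytokines 6 were tested, but only 3 had the mean above 100 that a call required. By edgeR 0 were called at either time, while DESeq2 called 0 at the end of induction and 2 at 12 h. At an unadjusted p under 0.05 there were 3 and 4 of the 6, beside 8735 and 10690 of the 13628 genes with a mean above 100. At 12 h Csf1r (log2 0.91, edgeR adjusted p = 3.34e-08) and Il6ra (0.80, 1.27e-05) were higher at under 2-fold, and Il6st was at 0.03. Of 3 with a mean of 100 or less over the MSR-dCas9-Control libraries, 1 and 2 were more than 2-fold higher with an adjusted p under 0.05, beside the 39.5% and 54.3%.

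**Figure D4:**
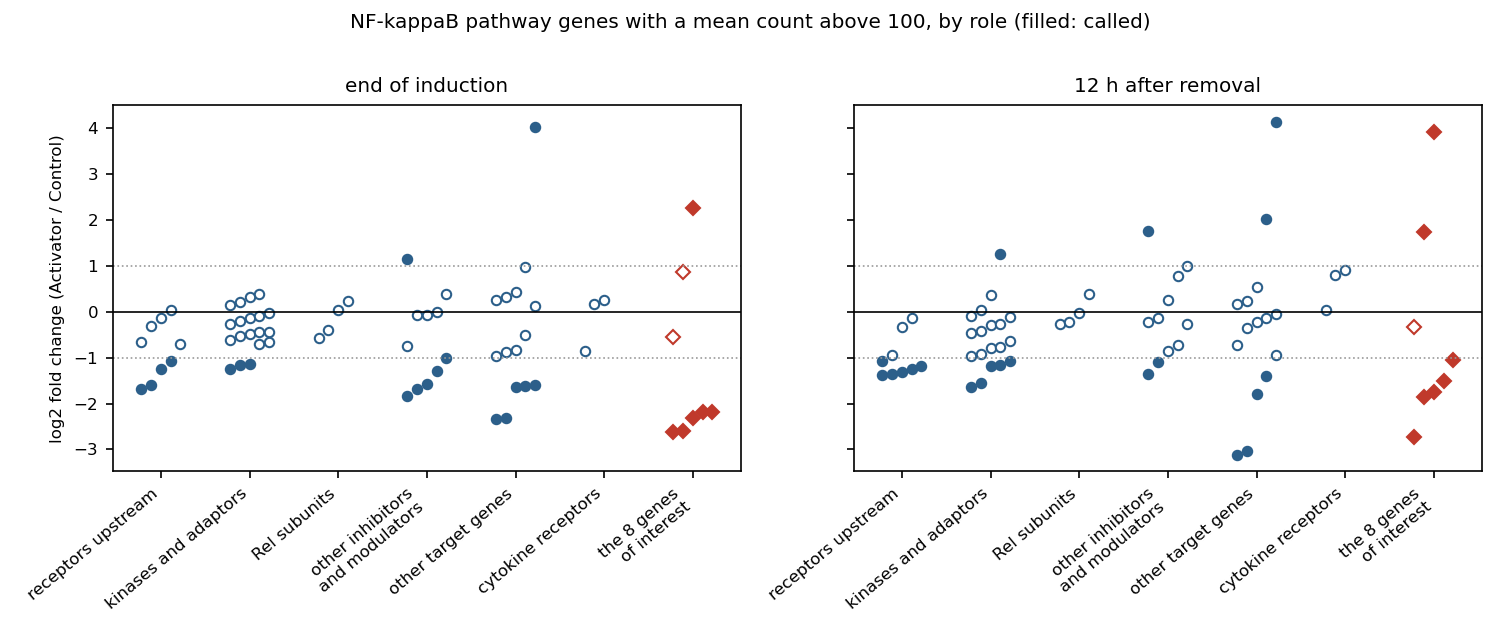
Log2 fold change of MSR-dCas9-Activator over MSR-dCas9-Control cells (vertical axis) for NF-kappaB pathway genes with a mean count above 100, by role, at the end of induction and 12 h after removal. Each point is a gene, filled where called, and diamonds are the 8 tested cytokine, chemokine, inhibitor and Rel genes, which reach lower than any listed receptor, kinase or subunit gene. The other target genes reach -2.34 (Bcl2l1) at the end of induction, and at 12 h Cxcl12 (-3.12) and Bcl2l1 (-3.04) lie below all 8.

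Markers of other cell types moved as well. The summed level of 12 macrophage and leukocyte markers was 13.6 to 17.7 CPM in MSR-dCas9-Control libraries, 16.4 to 23.3 CPM in MSR-dCas9-Activator libraries at the end of induction and 32.8 to 35.2 CPM at 12 h. Most of it was Csf1r and Cd68, and the defining markers Adgre1, C1qa and Cd3e had no more than 11 counts in any library, with Ptprc at most 1.23 CPM. At 12 h the log2 differences were 5.59 for Ptprc, 4.97 for Itgam, 3.64 for Lyz2, 3.21 for S100a8 and 1.99 for Mpeg1. They were 0.91 for Csf1r, 0.39 for Cd14 and -0.21 for Cd68. Of the 12, 8 were tested, but only 2 had the mean above 100 that a call required. By edgeR 0 were called at the end of induction and at 12 h, and by DESeq2 0 and 1. At an unadjusted p under 0.05 there were 5 and 6 of the 8, beside 8735 and 10690 of the 13628 genes with a mean above 100. Of 6 with a mean of 100 or less over the MSR-dCas9-Control libraries, 3 and 5 were more than 2-fold higher with an adjusted p under 0.05. The shares of all such genes were 39.5% and 54.3%. The 5 endothelial markers summed to 0.613 to 1.91 CPM in MSR-dCas9-Control libraries and 36.8 to 43.6 CPM in MSR-dCas9-Activator libraries at 12 h, nearly all of it Pecam1 and Tek, with Cdh5 at most 0.533 CPM. Before induction these sums were already apart, at 0.783 to 1.31 CPM against 1.63 to 3.06 CPM. Tek was then called higher (log2 1.40, edgeR adjusted p = 0.0294), beside 0.404% of all genes with a mean above 100. The 6 epithelial markers summed to 0.869 to 1.66 CPM in MSR-dCas9-Control and 1.98 to 4.26 CPM in MSR-dCas9-Activator libraries, ranges apart before induction too (0.869 to 1.26 against 2.10 to 3.09 CPM). The 10 fibroblast markers summed to 23580 to 27736 CPM in induced MSR-dCas9-Control and 23893 to 28110 CPM in induced MSR-dCas9-Activator libraries, and to 22516 to 23785 and 15306 to 18272 CPM at 12 h, and 23752 to 26076 and 10941 to 20107 CPM at 24 h. The part of other cell types in the levels of the 10 genes was not tested.

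The chemokine genes sit in clusters whose other members were mostly silent. Within 100 kb of Cxcl1, Cxcl2 and Cxcl5 on chromosome 5, Pf4 and Cxcl3 had no more than 5 counts in any library and were not tested, and Ppbp had no more than 13. Cxcl15, between Cxcl5 and Cxcl1, had a log2 difference of 3.55 at the end of induction and 3.77 at 12 h, with at most 58 counts in MSR-dCas9-Control libraries and 6 to 153 in MSR-dCas9-Activator libraries from induction on. Mthfd2l, downstream of Cxcl2, had differences from -0.29 to -0.55. Around Ccl2 and Ccl7 on chromosome 11, Ccl8, Ccl11 and Ccl12 had no more than 6 counts. Asic2, an ion channel gene upstream of Ccl2, had no more than 1 count in any MSR-dCas9-Control library and 5 to 441 in MSR-dCas9-Activator libraries from induction on. Apart from Mthfd2l these neighbours had mean counts below 100, a range in which many genes were higher in MSR-dCas9-Activator cells.

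Over the 36 libraries, the gene with the level most like that of each of the 8 was found by Pearson's correlation of log2 CPM, as a description over libraries that share line and time point. It was Luzp1 for Csf1 (r = 0.991), Phlda1 for Tnfaip3 (0.985), Mttp for Il6 (0.982), Gm26523 for Cxcl1 (0.972), Smurf1 for Ccl7 (0.967), Vezf1 for Ccl2 (0.964), Iffo2 for Nfkbia (0.940) and Edem1 for Relb (0.938). Smurf1 was also the gene next most alike for Ccl2 (0.962), so the CC ligands shared a neighbour in this ordering.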

How the data were processed

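Total RNA depleted of ribosomal RNA was sequenced by the authors as stranded paired-end libraries of MEF cells. The deposited values are raw counts of genes and repeat families, which the authors made with TEtranscripts from reads trimmed by cutadapt and mapped by STAR (GRCm38). The strand setting, the annotation release and the treatment of multi-mapped reads are not given in the sources used here. The Repressor line was not analysed here.

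All further steps were run on these counts. Genes were matched to GENCODE M21 by identifier (54495 of 54842), and 1 unnamed row, at most 0.00452% of a library, was left out. The 36 libraries were fitted together with edgeR 4.0.16 in R 4.3.3 (filterByExpr, TMM, glmQLFit with robust fitting, glmQLFTest) by group with the replicate number as a block, since the authors' DESeq2 design had the replicate as a term, and 28536 genes were tested, 13628 with a mean normalised count above 100. A gene was called, with the authors' limits, at an adjusted p under 0.05, more than 2-fold change and a mean normalised count above 100. P-values were adjusted by Benjamini-Hochberg over all genes tested. The standard error of a log2 fold change was taken as its absolute value over the root of the F statistic. Per-kb levels used the summed exon length. Correlations used log2(CPM + 0.5). Depth limits the precision of low genes, and a floor of 3 counts was used where a group had none.

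The members and gene lists were chosen with earlier results of these data known. Named were the 10 genes, from each list the called genes that rose most (2) and fell most (2) at the end of induction and at 12 h, the gene most alike in level to each, and GSAT_MM and SYNREP_MM. Neighbours were protein-coding genes within 100 kb. Alternatives were DESeq2 1.42.0, other library scalings (the 13 mitochondrially encoded mRNAs among them), filters and limits, the fit without the block, the difference less that before induction, fits to only the libraries compared, and leaving out each library or replicate number. The fit was tested on simulated data with known changes.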

Additional observations from a re-analysis of the deposited data

Results flagged for a closer look

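In 6 of the 8 tested genes the change from uninduced to induced cells differed between the lines, 1 upward and 5 downward. That was by the interaction term of edgeR's quasi-likelihood test and by more than 2-fold, beside 4.67% and 11.4% of all genes. Without replicate 3 of every group 3 genes remained, since Cxcl1, Ccl2 and Ccl7 no longer passed. Relb passed that test at under 2-fold (0.70, adjusted p = 0.00562). On the log2 scale, the change in MSR-dCas9-Activator cells less that in MSR-dCas9-Control cells was 2.39 for Il6, -2.67 for Cxcl1, -1.67 for Ccl2, -1.97 for Ccl7, -2.42 for Csf1 and -2.33 for Tnfaip3, with Benjamini-Hochberg adjusted p-values of 3.03e-06, 0.000362, 0.00122, 0.000933, 9.44e-05 and 0.000119 in that order. Induction lasted 6 h in the MSR-dCas9-Activator line and 24 h in the MSR-dCas9-Control line, so line and length of induction cannot be told apart in these values.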

How the results depend on the processing

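Of 1584 values of the 8 genes under other settings, 1486 kept their direction and their side of the limits, 33 were no longer called, 29 became called and 36 changed sign, none of them a called value. At 24 h the count of 3 called genes became 5 with no limit on the fold change and 1 to 4 when libraries were left out. The count for the difference between the changes on induction ranged from 3 to 6 on leaving out libraries. At 3 h against the end of induction, the MSR-dCas9-Activator line had 1 called gene with no limit on the fold change, and the MSR-dCas9-Control line had 3 with DESeq2, 2 with DESeq2 size factors, 3 in the libraries compared alone and 0 to 1 on leaving out libraries. Ccl7 at 24 h, at -0.01 on the log2 scale, was 0.20 less the difference before induction, 0.12 with DESeq2, 0.12 with its size factors, 0.081 with unscaled library sizes, 0.049 with no filter and 0.031 in the libraries compared alone. With scaling to mitochondrially encoded mRNAs Nfkbia at 24 h was -0.11, and on induction of the MSR-dCas9-Control line Ccl7 was -0.14, Csf1 -0.11, Nfkbia -0.00613 and Tnfaip3 -0.059. That scaling moved the all-gene median from -0.07 to -0.44 at the end of induction and from -0.29 to -0.92 at 12 h. On leaving out libraries, values before induction ran from -0.23 to 0.0102 for Il6, -0.51 to 0.042 for Csf1, -0.15 to 0.20 for Nfkbia and -0.67 to 0.052 for Tnfaip3. At 24 h they ran from -0.54 to 0.43 for Ccl7 and -0.0265 to 0.21 for Nfkbia. On induction of the MSR-dCas9-Control line they ran from -0.24 to 0.11 for Cxcl1, -0.091 to 0.22 for Ccl7, -0.068 to 0.18 for Csf1, -0.050 to 0.31 for Tnfaip3 and -0.12 to 0.0354 for Relb, and for Tnfaip3 at 3 h against induced MSR-dCas9-Activator cells they ran from -0.43 to 0.092. The cause of these changes was not tested. Without the replicate block, 0 genes were called before induction, 6 at the end of induction, 7 at 3, 6 and 12 h, 2 in place of 3 at 24 h (Cxcl1 was lost), 6 on induction of the MSR-dCas9-Activator line and 6 for the difference between the lines in that change, and 0 in each of the other comparisons. Libraries with the same replicate number in both lines deviated from their group means with correlations from -0.0281 to 0.518 over 18 pairs, 16 of them over 0.1, and 16 of 18 correlated best with their own number. Depth limits Cxcl2 and Cxcl5, which could not be tested.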
